A study of Homo sapiens with 5 samples.

Results

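HSPA1B, DNAJB1, HSPA5, ATF4 and JUND are 5 stress-inducible genes that were measured in human melanoma cells treated with cisplatin, with or without electroporation. All probes annotated to 1 of these genes and to no other gene were taken. This gave 5 of the 2078 genes named on the array and 7 of its 3048 probes. There was a pair each for HSPA1B and HSPA5 and 1 probe each for the other genes. The genes were picked with their log2 ratios on these same arrays in view, so the ratios below describe them and are given without a test.

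SK-MEL28 is an established human malignant melanoma line. Cells received cisplatin, a DNA-crosslinking platinum compound (3 arrays), or cisplatin and electroporation, here called the combination (2 arrays), and untreated SK-MEL28 cells served as the reference on every array. For electroporation, trypsinised cells in a chilled sucrose-phosphate buffer received a train of 8 electric pulses (1300 V/cm, each 100 µs long, delivered at 1 Hz). For the RNA samples, the labels do not state how much cisplatin was used or for how long. They also do not describe the handling of the cisplatin-only cells, nor say whether untreated cells passed through the buffer, and cells pulsed without drug are not analysed here. Treated RNA carried Cy5 and untreated RNA Cy3 on all 5 arrays. A preference of a probe for one dye therefore remains in its ratio to untreated cells, while it cancels in the difference between the treatments if it is constant. Nothing in the labels says whether the replicates came from separate cultures, so the spread between arrays may be technical. All 6 measured of 8 melanocyte markers (MITF, TYR, TYRP1, MLANA, SOX10 and S100B) stood above background on every array, as did 3 of 4 measured epithelium, 3 of 5 endothelium, 2 of 3 leukocyte markers and the 1 measured fibroblast marker. The specificity of the probes for the genes they are annotated to was not tested. Fewer cells expressing a gene and less RNA per cell cannot be told apart in these bulk samples.

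The 5 genes belong to 3 arms of the stress response. Cytosolic HSP70, which HSPA1B encodes, binds unfolded proteins together with its J-domain partner DNAJB1 (an HSP40), and heat shock factor HSF1 induces both genes when proteins misfold. HSPA5 encodes BiP, the HSP70 of the endoplasmic reticulum and a classic target of the unfolded protein response. ATF4 is the transcription factor of the integrated stress response, in which phosphorylated eIF2 lowers general translation but favours that of the ATF4 message, so ATF4 protein can rise without its mRNA. JUND is a JUN family subunit of the AP-1 transcription factor. It is neither a heat shock gene nor a core gene of the integrated stress response, and the heading under which the genes were put together is loose for it.

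Promoter sequence is shown because members of a stress pathway are known to share response elements. RefSeq promoter windows (GRCh38.p14) were matched for 5 of 5 genes, with 1 annotated start each for HSPA1B, HSPA5 and JUND, 2 for ATF4 and 3 for DNAJB1. The 250 bases before a start were searched on both strands for 7 motifs: the paired heat shock motifs GAANNTTC and TTCNNGAA, the ER stress response element (CCAAT and CCACG with a 9-base spacer of any letters), the cAMP response element TGACGTCA, the AP-1 site TGANTCA, the C/EBP-ATF response element TGATGNAA and the TATA box TATAAA. The windows printed here are those of the heat shock pair, of HSPA5 and of JUND, 5' to 3', with the matches in capitals; for DNAJB1 the start was picked after the search, as the one with matches. HSPA1B lies on the plus strand (chr6:31827488-31827737), and the DNAJB1 window (chr19:14518398-14518647), the HSPA5 window (chr9:125241344-125241593) and the JUND window (chr19:18281623-18281872) on the minus strand.
HSPA1B: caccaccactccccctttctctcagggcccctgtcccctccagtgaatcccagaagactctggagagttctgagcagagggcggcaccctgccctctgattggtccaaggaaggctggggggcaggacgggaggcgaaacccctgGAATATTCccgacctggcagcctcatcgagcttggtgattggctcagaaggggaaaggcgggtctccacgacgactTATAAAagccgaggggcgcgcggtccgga
DNAJB1: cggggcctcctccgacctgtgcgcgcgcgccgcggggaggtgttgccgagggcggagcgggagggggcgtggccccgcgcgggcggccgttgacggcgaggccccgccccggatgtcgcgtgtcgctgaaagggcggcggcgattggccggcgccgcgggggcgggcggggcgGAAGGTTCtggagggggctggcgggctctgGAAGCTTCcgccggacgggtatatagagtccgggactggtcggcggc
HSPA5: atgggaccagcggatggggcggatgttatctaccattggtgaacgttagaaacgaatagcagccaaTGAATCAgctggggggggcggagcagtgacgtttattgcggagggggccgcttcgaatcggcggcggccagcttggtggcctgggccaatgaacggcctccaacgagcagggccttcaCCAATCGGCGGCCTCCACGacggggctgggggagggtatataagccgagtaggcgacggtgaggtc
JUND: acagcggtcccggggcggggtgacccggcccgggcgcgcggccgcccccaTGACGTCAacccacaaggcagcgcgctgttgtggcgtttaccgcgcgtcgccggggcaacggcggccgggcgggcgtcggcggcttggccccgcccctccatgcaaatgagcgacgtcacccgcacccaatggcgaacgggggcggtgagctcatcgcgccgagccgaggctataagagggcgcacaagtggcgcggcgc
GAANNTTC occurred 1 time in the HSPA1B window, from 105 to 98 bases before the start, followed by a TATA box. It occurred at 77 to 70 and at 47 to 40 bases in this DNAJB1 window, and the windows of the other DNAJB1 starts held none of the motifs. Of all 35116 promoter windows, 5.78% held GAANNTTC. HSPA5 carried the ER stress response element from 66 to 48 bases before its start, a match shared by 0.074% of all windows. It also held TGAATCA, a match to the AP-1 pattern TGANTCA, which 6.57% of windows held. That pattern takes any base at its centre, and no tighter form was searched. JUND carried a cAMP response element, present in 1.65%, from 200 to 193 bases before its start. Both ATF4 windows, which overlap, held a TATA box (10.7% of windows) and no other of the motifs. TTCNNGAA, held by 6.62% of windows, and TGATGNAA, held by 3.14%, matched no window of the 5 genes. These are matches of letters and say nothing of binding in these cells. Over their 250 bases, the windows of HSPA1B and of its neighbour HSPA1A differed by an edit distance of 16. HSPA1A encodes an almost identical HSP70, and no probe here is annotated to it alone. A signal from HSPA1A on the HSPA1B probes cannot be told apart from one of HSPA1B.

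Each value given next is the log2 of treated over untreated signal after background correction and loess normalization, averaged over the 4 spots of a probe, with SD over arrays; a value of 0 means equal signal. The correction adds a constant of 50 to both channels, which draws the ratios of dim probes toward 0. Detection above background in a channel required that a share of 0.5 or more of the spots stood over local background by 2 of its SDs. In both channels of every array 6 of the 7 probes met this, and the dimmer HSPA5 probe did so in 3 of 5 arrays in each channel. Per array, between 1535 and 1843 of the 3048 probes were above background in Cy3 and between 1216 and 1824 in Cy5, and 1461 were so in at least 1 channel on every array. The number of arrays limits the precision.

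The HSP70 gene HSPA1B gave ratios above 0 on most arrays with loess. With median centring in its place this no longer held for the brighter probe. The HSPA1B probes differed in which treatment was higher. Both are annotated to the same transcript, NM_005346. On the brighter probe (VM_H200017080) the cisplatin arrays read 0.21, 0.059 and 0.35, and the combination arrays 0.16 and -0.11. The groups overlap, and only the second combination array lies below 0. The mean was 0.20 ± 0.14 (SD, n = 3) after cisplatin, a 1.15-fold level, and 0.027 ± 0.19 (SD, n = 2) after the combination. With median centring in place of loess this probe read -0.18, -0.020 and 0.35 after cisplatin (mean 0.050) and -0.18 and -0.42 after the combination (mean -0.30), so that only the third cisplatin array stayed above 0.

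The dimmer HSPA1B probe (VM_H200001719) read 0.19, 0.24 and -0.0095 after cisplatin, and 0.43 and 0.49 after the combination. Here both combination arrays lie above all cisplatin arrays. The mean was 0.14 ± 0.13 (SD, n = 3) after cisplatin and 0.46 ± 0.043 (SD, n = 2) after the combination, or 1.10-fold and 1.38-fold, and the difference between the treatments was 0.32 (SE 0.088). This probe was chosen for that contrast among others, so the size is a description. With median centring it read -0.13, 0.17 and -0.0047 after cisplatin (mean 0.012) and 0.11 and 0.30 after the combination (mean 0.21), and the groups overlapped. Before any normalization, its median foreground on the second combination array was 188 in Cy5 and 172.5 in Cy3, while the medians over all spots of that array were 28 and 43. On the other arrays its median foreground lay between 108.5 and 154 in Cy5 and between 115.5 and 144 in Cy3, with backgrounds of 11 to 16.

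Single spots show how steady these values are. On the first combination array the 4 spots of the dimmer probe lay between 0.25 and 0.50. On the second, the first 3 listed spots read 0.78, 0.66 and 0.54, and the last read -0.0082 with a foreground of only 18 in Cy3 and 16 in Cy5, close to background, so the probe averaged 0.66 without it and 0.49 with it. On the brighter probe the second combination array was even, from -0.17 to 0.0083. The brighter probe's spots on the second cisplatin array spread from -0.21 to 0.29, wider than the difference between the treatments.

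**Figure D1:**
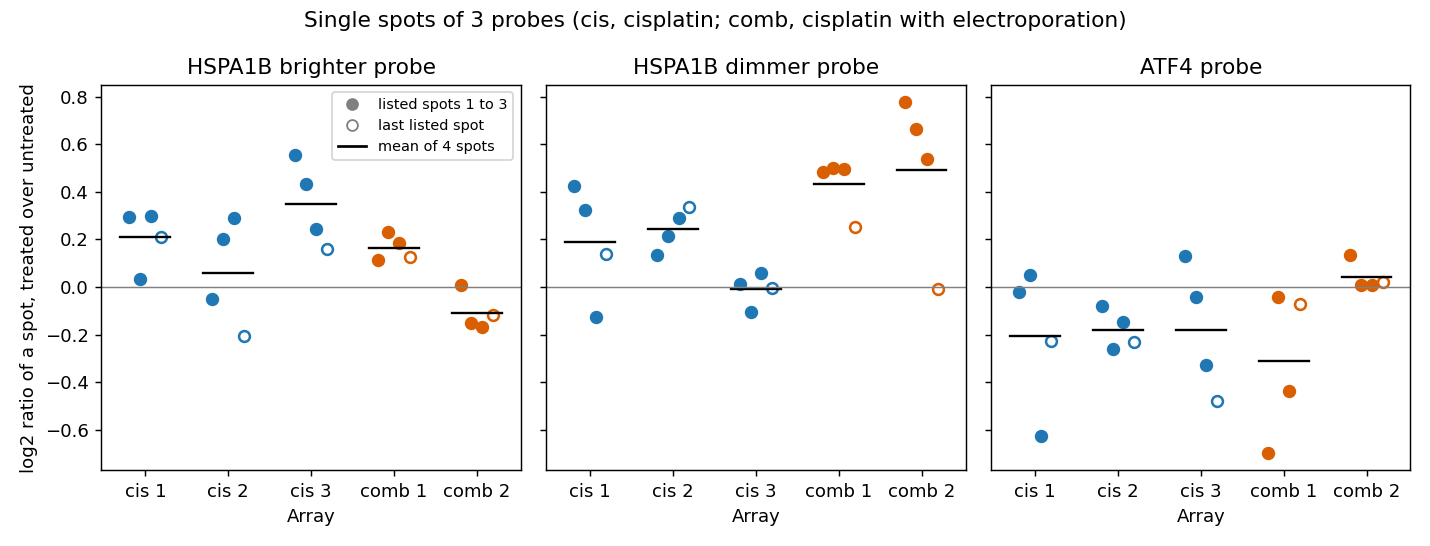
Log2 ratio (treated over untreated, y axis) of each of the 4 spots of the brighter HSPA1B, the dimmer HSPA1B and the ATF4 probe on each array (x axis), blue for cisplatin and orange for the combination, with the last listed spot open and the mean as a black line. The last listed spot of the dimmer HSPA1B probe on the second combination array, at -0.0082, lies apart from the other spots of that array, which read 0.54 to 0.78.

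DNAJB1, the J-domain partner of HSP70, was above 0 on every array under loess normalization, by little on the second cisplatin array. It read 0.20, 0.0081 and 0.17 after cisplatin (mean 0.13 ± 0.10, SD, n = 3) and 0.26 and 0.15 after the combination (mean 0.21 ± 0.081, SD, n = 2). The groups overlap. With median centring in place of loess both means were below 0, -0.037 after cisplatin and -0.14 after the combination, so the sign rests on how the intensity trend of an array is removed. The raw foreground, as the median over spots of each array, was moderate, 185.5 to 283.5 in Cy3 and 179 to 247.5 in Cy5.

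HSPA5, the BiP gene, went the other way on its brighter probe. This probe (VM_H200006093) read -0.22, -0.25 and 0.021 after cisplatin, and -0.22 and -0.29 after the combination. The third cisplatin array alone lies above 0, and the groups overlap. The means were -0.15 ± 0.15 (SD, n = 3) and -0.25 ± 0.047 (SD, n = 2), which correspond to 0.902 and 0.839 of the untreated level. The spots spread from -0.67 to 0.24 on the first cisplatin array, from -0.78 to 0.13 on the second and from -0.34 to 0.23 on the third. These arrays therefore carry little precision. The spots of the first combination array ran from -0.50 to 0.045, whereas those of the second all lay between -0.36 and -0.19. Without the third cisplatin array the cisplatin mean was -0.23, close to that of the combination, but it then rests on the arrays with the widest spots. With median centring the means were lower, -0.32 and -0.59. The median over the 1461 probes above background was then lower too, -0.11 and -0.23 in place of -0.0077 and -0.021.

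The dimmer HSPA5 probe (VM_H300000330) had a median foreground per array of 25.5 to 47.5 in Cy3 and 26.5 to 38 in Cy5 against median backgrounds of 11 to 16.5. Its ratios, 0.037, 0.049 and -0.014 after cisplatin and -0.035 and -0.052 after the combination, are those of a probe near background and show little of the transcript. In the authors' deposited table this probe read 0.38 on the first cisplatin array and -0.40 on the second combination array, and it has no value there on the first combination array.

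ATF4 was the brightest of the 5 genes' probes by raw signal, with a median foreground per array of 1556 to 2856 in Cy3 and 1377 to 2075.5 in Cy5. It read -0.21, -0.18 and -0.18 after cisplatin, the closest agreement between cisplatin arrays among the 6 member probes above background (mean -0.19 ± 0.015, SD, n = 3). The combination arrays disagreed, with -0.31 on the first and 0.043 on the second (mean -0.13 ± 0.25, SD, n = 2), and they lie on either side of the cisplatin arrays. With median centring the close agreement was lost: the cisplatin arrays read -0.63, -0.24 and -0.14 (mean -0.34) and the combination arrays -0.68 and -0.16 (mean -0.42). The lower medians of all probes above background, given for HSPA5, hold here as well. The agreement after cisplatin is between means of spots that varied more, from -0.63 to 0.050 on the first cisplatin array and from -0.48 to 0.13 on the third. On the first combination array its spots ran from -0.70 to -0.041, and on the second from 0.0072 to 0.14.

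JUND was above 0 on all 5 arrays and nearly equal after the treatments. It read 0.49, 0.10 and 0.23 after cisplatin (mean 0.27 ± 0.20, SD, n = 3) and 0.35 and 0.22 after the combination (mean 0.28 ± 0.089, SD, n = 2), or 1.21-fold and 1.22-fold. The difference between the treatments was 0.010 (SE 0.12), and its sign changed in 6 of 14 other settings. The first cisplatin array is the highest, with all 4 spots between 0.40 and 0.60, and the combination arrays lie within the range of the cisplatin arrays. With median centring the cisplatin mean was 0.12 and the combination mean 0.0069, with 0.081 and -0.067 on the single arrays.

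**Figure D2:**
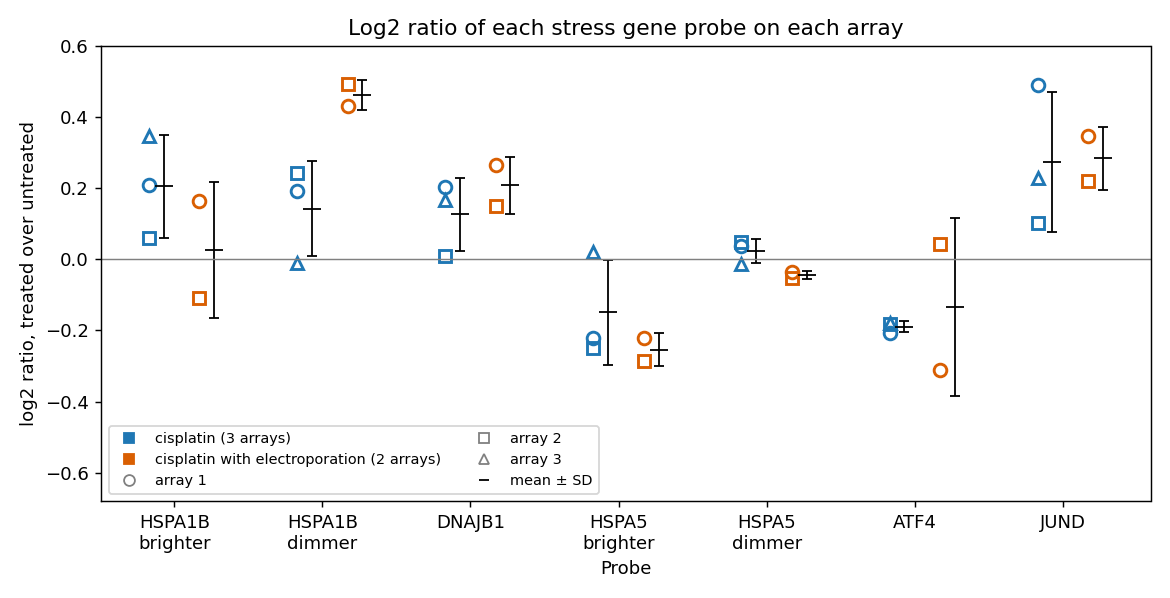
Log2 ratio (treated over untreated, y axis) of each of the 7 probes (x axis) on each array, blue for cisplatin (3 arrays) and orange for the combination (2 arrays), with a marker shape per replicate number and the mean and SD of each group in black. The combination arrays lie above every cisplatin array for the dimmer HSPA1B probe, at 0.43 and 0.49, and for the other probes above background the groups overlap. These are loess values; with median centring the groups of the dimmer HSPA1B probe overlap, and DNAJB1, above 0 here, has negative means.

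Read as a group, the 7 probes did not move one way. After cisplatin 3 of them were above 0 on every array (JUND and, with loess but not with median centring, the brighter HSPA1B probe and DNAJB1), as were 16.5% of all probes, and 1 (ATF4) was below 0 on every array, as were 18.3%. After the combination 3 were above 0 on both arrays (the dimmer HSPA1B probe and, with loess but not with median centring, JUND and DNAJB1), against 23% of all probes, and 2, those of HSPA5, below 0, against 30.3%. Both combination arrays lay above every cisplatin array for 1 probe, the dimmer one of HSPA1B (with loess but not with median centring), and below for 1, the dimmer one of HSPA5, against 7.32% and 10.7% of all probes. The genes were picked on these ratios, so nothing is read from these counts. Their median was 0.13 after cisplatin and 0.027 after the combination, beside -0.0014 and -0.0066 over all probes. Among the 1461 probes above background, the range from the 5th to the 95th percentile ran from -0.24 to 0.18 after cisplatin and from -0.34 to 0.18 after the combination. The brighter HSPA1B probe and JUND after cisplatin, and DNAJB1, JUND and the dimmer HSPA1B probe after the combination, lay above this range, and no member lay below it. Nothing is read from these places either, because the genes were picked with these ratios in view. They are loess values. The limma test over all 3048 probes called 0 of them in any of the 3 comparisons at an adjusted p under 0.05, with 337 probes at an unadjusted p under 0.05 for cisplatin, 304 for the combination and 107 for the difference. The smallest adjusted p by limma was 0.106, 0.0932 and 0.994.

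**Figure D3:**
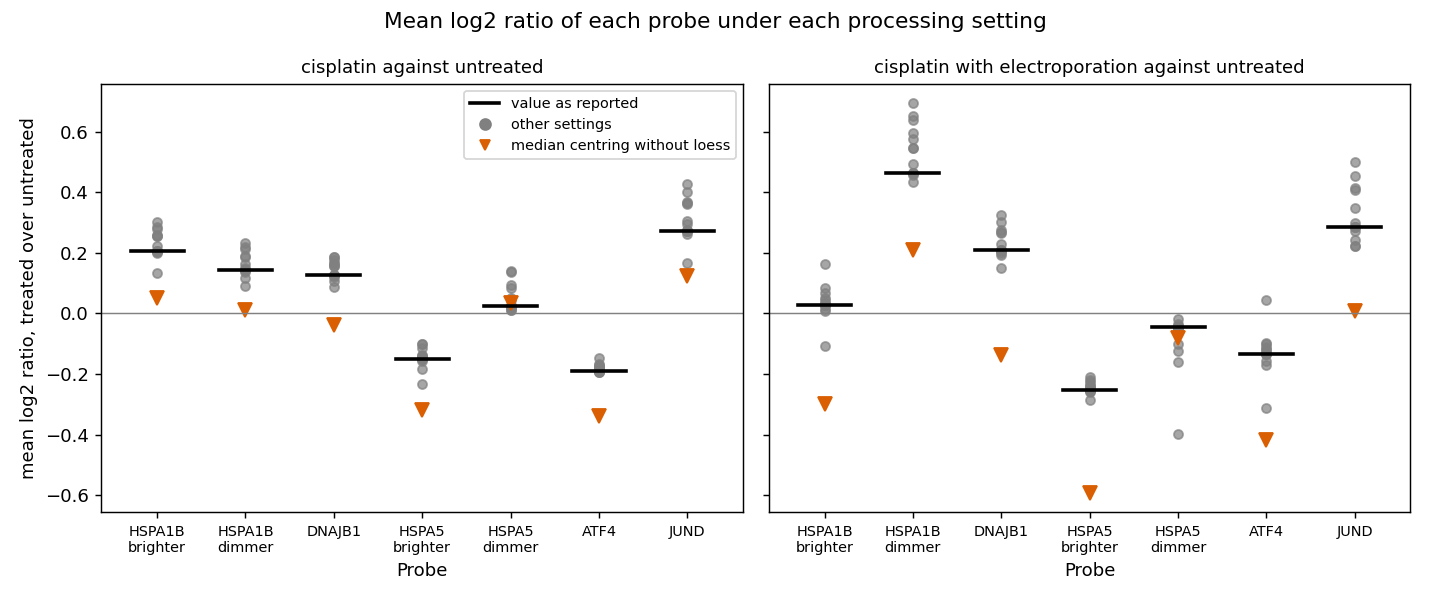
Mean log2 ratio (treated over untreated, y axis) of each of the 7 probes (x axis) for cisplatin (left) and the combination (right), as reported (black line), under median centring (orange) and under the other settings (grey). Median centring gives the lowest value for every probe above background, and it turns DNAJB1 below 0 in both treatments (-0.037 and -0.14) and the brighter HSPA1B probe after the combination (-0.30). The mean of ATF4 after the combination is above 0, at 0.043, without the first combination array.

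Other genes of the same pathways were taken from 3 lists of 107 genes, of which 46 were measured and 27 stood above background on every array. The values are those of the brightest probe of each gene with the SE from limma. No gene of the lists passed the test at an adjusted p under 0.05 in any comparison, and the smallest adjusted p among them was 0.237 by limma, for TRAP1 after cisplatin. Apart from a few named after their values were seen, the genes shown are those with the largest values among probes above background.

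Of 17 measured heat shock proteins and chaperones, limma gave an unadjusted p under 0.05 for 1 higher and 3 lower after cisplatin, where 4.95% and 6.1% of all probes did so, and for 2 higher and 4 lower after the combination, where 2.99% and 6.99% did. In the difference between the treatments it gave 1 higher and 0 lower, beside 1.28% and 2.23% of all probes. Their median was 0.0046 after cisplatin and 0.057 after the combination. HSF4, a heat shock factor known for its role in the lens, read -0.19 (SE 0.059, n = 3) with cisplatin alone and -0.35 (SE 0.072, n = 2) in the combination, with all 5 arrays below 0. TRAP1, the mitochondrial HSP90, read -0.19 (SE 0.037) and -0.18 (SE 0.045). DNAJA1, another J-domain partner of HSP70, was at 0.094 (SE 0.080) with cisplatin alone and at 0.35 (SE 0.098) with electroporation added, the latter from 0.15 and 0.54 on the single arrays. The co-chaperone BAG4 read -0.16 (SE 0.096) after cisplatin, and BAG5 differed between the treatments by 0.14 (SE 0.055). DNAJA1 was above 0 on both combination arrays. With median centring the list's median after the combination was -0.16 beside -0.23 over all probes above background. The sets are unlike, because the list's median also covers measured genes that were not above background on every array.

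Of 12 measured genes of ER stress and the integrated stress response, 0 were higher and 1 was lower at an unadjusted p under 0.05 after cisplatin by limma, beside 4.95% and 6.1% of all probes. After the combination 1 was higher and 2 were lower, beside 2.99% and 6.99%, and in the difference 0 were higher and 0 lower, beside 1.28% and 2.23%. ATF5, a bZIP factor related to ATF4 and likewise controlled in translation, had -0.15 (SE 0.099) with cisplatin and -0.38 (SE 0.12) in the combination. The ER chaperone HSP90B1 (GRP94) read -0.099 (SE 0.039) and -0.068 (SE 0.048), and the lectin chaperone CANX -0.069 (SE 0.054) and -0.10 (SE 0.066). PDIA3, a disulfide isomerase of the ER, read 0.068 (SE 0.052) and 0.18 (SE 0.064). XBP1, the transcription factor spliced by the ER stress sensor IRE1, read 0.050 (SE 0.069) and -0.16 (SE 0.084). The list's median was -0.037 after cisplatin and -0.060 after the combination. With median centring it was -0.11 and -0.33, beside -0.11 and -0.23 over all probes above background. As for the chaperones, the sets are unlike. ASNS, an ATF4 target, was not above background in either channel of any array, so ATF4 activity cannot be read from it. PPP1R15A, another gene of this list, was above background in both channels of all 5 arrays. It read -0.029 (SE 0.071) with cisplatin and 0.059 (SE 0.086) in the combination.

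Of 17 measured AP-1 and immediate early genes, limma gave an unadjusted p under 0.05 for 1 higher and 0 lower after cisplatin (4.95% and 6.1% of all probes), and for 1 higher and 0 lower after the combination (2.99% and 6.99%). In the difference between the treatments 0 were higher and 1, DUSP5, was lower (1.28% and 2.23%). Both counts of higher genes were DUSP2, a nuclear MAP kinase phosphatase, at 0.15 (SE 0.053) and 0.20 (SE 0.065). DUSP4, of the same family, read -0.16 (SE 0.080) and -0.19 (SE 0.098). DUSP5, a phosphatase of ERK, was at 0.10 (SE 0.040) with cisplatin alone and -0.11 (SE 0.049) in the combination, a difference of -0.21 (SE 0.064). The JNK-activating kinase MAP2K4 read -0.13 (SE 0.084) and -0.017 (SE 0.10), and DUSP6 -0.10 (SE 0.055) and -0.038 (SE 0.067). JUN, JUNB and FOS, the partners and relatives of JUND, were above background in no channel of any array, and FOSL1 read -0.076 (SE 0.061) and -0.064 (SE 0.075).

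**Figure D4:**
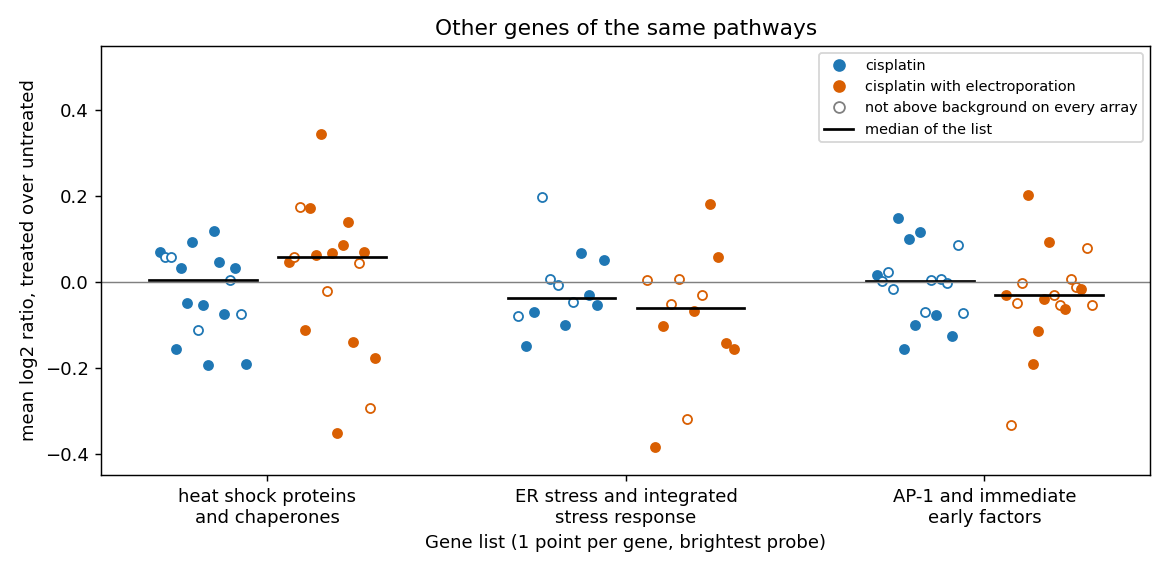
Mean log2 ratio (treated over untreated, y axis) of the measured genes of 3 pathway lists (x axis), blue for cisplatin and orange for the combination, open where the probe was not above background on every array, with the list's median in black. The medians lie between -0.060 and 0.057. The widest spread is in the combination, from HSF4 at -0.35 to DNAJA1 at 0.35 among the chaperones and down to ATF5 at -0.38.

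The genes whose 5 ratios lay nearest to a member's were found by the root mean square difference over the 5 arrays, among named probes above background on every array (1244 probes for HSPA1B and 1245 for each other gene). For the brighter HSPA1B probe these were CBFB at 0.055 and IL1RN at 0.068, and for DNAJB1 they were DCK at 0.049 and ELK3 at 0.055. TRA2B at 0.069 and PYCARD at 0.071 were nearest to the brighter HSPA5 probe. ATF4 had the closest neighbours, VPREB3 at 0.035 and CGB7 at 0.045. For JUND they were ITGA7 at 0.068 and GNRHR at 0.11, the latter the most distant of those named. With so many candidates and 5 arrays, such likeness carries no statement on function.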

How the data were processed

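RNA was amplified, dye-coupled and hybridised to 5 two-colour arrays, per the labels' protocols. The scanner files as deposited hold raw foreground and local background intensity of 12788 spots, per the file headers, with no normalization. The authors' deposited value table gives log2 ratios by probe; their normalization is not stated in the labels or headers. They followed log2(channel 2/channel 1) on every array (Pearson 0.812 to 0.889 across probes, slope 1.23 to 1.76, column medians -0.0275 to 0.023) and served as an alternative. Channel 2 was read as Cy5.

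Median foreground was corrected with normexp (offset 50), normalized by loess (span 0.3) and averaged over the spots of a probe with limma 3.58.1 in R 4.3.3. One limma model over the 5 arrays (prior 2.47 degrees of freedom) gave both group means and their difference, with two-sided p-values adjusted by Benjamini-Hochberg over 3048 probes. The model was tested on simulated data that held no intensity trend between the dyes. The choice of loess over median centring was not tested there. Symbols came from the platform annotation (2192 probes with 1 gene, 856 with none or with several, which were left unnamed). The members and the gene lists were chosen with earlier results of these data known. Named list genes were up to 3 per list and comparison with the largest absolute value among probes above background. The nearest genes were 2 per member. PPP1R15A, FOSL1 and the genes named as not above background were chosen after their values were seen. Probe sequences were not used here. Alternatives changed the background correction, normalization, filter, spot summary, samples and variance model.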

Additional observations from a re-analysis of the deposited data

How the results depend on the processing

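Among the 14 other settings run on the 7 probes, the means of the dimmer HSPA1B probe (0.21 to 0.69 after the combination), the brighter HSPA5 probe (-0.59 to -0.21) and JUND (0.0069 to 0.50) kept their sign. Leaving out an array of the other treatment cannot change a treatment's mean, so in those settings the sign was fixed in advance. Median centring without loess moved most. After the combination it left 2 of 7 probes with a positive mean in place of 4, and after cisplatin 4 in place of 5. Among the 1461 probes above background, positive means went from 47.1% to 18.5% after cisplatin and from 43.2% to 8.69% after the combination. The median of these 1461 probes went to -0.11 after cisplatin and -0.23 after the combination. The ATF4 mean after the combination was 0.043 without the first combination array and -0.31 without the second, and the brighter HSPA1B probe then read -0.11 and 0.16.

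For cisplatin, limma called 4 probes when background was left uncorrected and 1 in the authors' value table, where 1281 probes have all values, and 0 when any array was left out. For the combination it called 10 without background correction, 35 with median centring, 1 with scale normalization, 11 among probes above background, 8 in the authors' table and 9 with a trended and robust variance. Leaving out 1 array gave 0 to 93 calls for the combination and 0 to 47 for the difference, the highest without the first combination array, the other then being assumed to vary like the cisplatin arrays. The calls without the third cisplatin array numbered 1 for the combination. At an unadjusted p under 0.05 the counts were 173 to 399 for cisplatin, 181 to 1048 for the combination and 58 to 291 for the difference; the lowest come from settings with fewer probes tested. The causes were not tested. The only member called in any setting was the dimmer HSPA1B probe, in the authors' value table for the combination. The members were picked on these ratios, so nothing is read from that call. Arrays with the same number share only a number (correlation of their deviations 0.336 and 0.12), and the replicate block gave 0 calls in each comparison, with 399, 337 and 131 probes at an unadjusted p under 0.05. The use of only the first 3 spots and the removal of the last listed spots of the second combination array were chosen after seeing the data; with the latter the dimmer HSPA1B probe read 0.66 on that array. Low signal over background limits the dimmer HSPA5 probe.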

Other observations

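The HSPA1B probes parted by treatment. The brighter minus the dimmer probe gave 0.017, -0.18 and 0.36 after cisplatin (mean 0.063) and -0.27 and -0.60 after the combination (mean -0.43). Among 38 genes with more than 1 probe above background on every array, the median absolute difference between the 2 brightest probes was 0.090 after cisplatin and 0.15 after the combination, and HSPA1B ranked 3 by this measure after the combination. Over all 5 arrays its root mean square difference of 0.34 ranked 8 of the 38, where the median was 0.22. This comparison was chosen after the values were seen.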
